A study of Mus musculus with 6 samples.

Results

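The Serpin genes are a family of 64 genes among the 24422 genes of the count table, taken as every symbol that begins with Serpin, a clade letter from a to i and a digit, without use of any measured value. Fold changes are given for members with at least 60 reads summed over the 6 libraries. Of the 64 members, 29 reached that number, 19 had between 1 and 59 reads and 16 had none. At the edge of the rule, Serpina3m with 61 reads and Serpinb10 with 62 lay just inside, and Serpinb6c with 52 and Serpina1c with 32 lay just outside. Serpina3m had 0, 1 and 6 reads in Control and 22, 28 and 4 in the knockout group. Serpinb10 had 5, 2 and 6 against 41, 2 and 6, so both met the rule only through knockout reads.

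The libraries were made from whole kidney of C57BL/6 mice at postnatal day 13, 3 from the Control group, whose genotype is labelled wild type, and 3 from the group labelled Tfr1f/f;SixCre, called TfR1 knockout here. TfR1 (gene Tfrc) is the transferrin receptor through which cells take up transferrin-bound iron. In the knockout its floxed exons are removed by a Cre recombinase driven from Six2, which is active in the progenitors of the nephron and not in the ureteric bud, and the study describes nephron cells that escaped deletion and kept the receptor. Both groups were on the iron sufficient diet of 220 ppm iron, and the comparison asks how the kidney transcriptome differs when nephron cells lack the receptor.

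Most serpins are suicide inhibitors of serine proteases. The protease cleaves an exposed loop of the serpin, the serpin folds the cut loop into its own body, and the protease is left distorted and covalently trapped. Secreted serpins hold coagulation, fibrinolysis, complement and neutrophil proteases in check, the clade B serpins work mostly inside cells against granule and lysosomal proteases, and a few members have lost inhibition and carry hormones or fold collagen.

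Total counts ranged from 16591156 to 22898008 per library. Kidney tubule markers were abundant in each library. Their summed level over 10 genes was 124200 to 248900 normalized counts in Control and 93740 to 144200 in knockout. By DESeq2 6 of the 10 were lower in the knockout, of which edgeR called 3. By both tests 1, the collecting duct water channel gene Aqp2, was higher (log2 fold change 2.74). Control 3 stood apart from the other Control libraries, with the lowest tubule sum and the highest stromal sum of its group. Adrenal cortex markers were high in Control 1 and TfR1 knockout 3, where Cyp11b1 stood at 1657 and 255.4 normalized counts against at most 9.998 in the others. Tfrc stood at 5534, 6485 and 3667 normalized counts in Control 1, 2 and 3 and at 6976, 4045 and 5898 in the knockout libraries, which overlapped (log2 fold change 0.11, SE 0.29, DESeq2 adjusted p = 0.853), so this whole-gene count did not separate the labels. In bulk kidney, fewer cells of a type and less RNA per cell cannot be told apart.

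Among the 29 members, 6 were higher and 3 were lower in the TfR1 knockout by DESeq2 at an adjusted p under 0.05, and 20 did not pass. The higher members were Serpina3n, Serpinb1a, Serpinb6a, Serpinb6b, Serpinb9 and Serpini1, and the lower members were Serpina6, Serpina1f and Serpind1. Over all 16509 genes tested, 7.74% were higher and 7.18% were lower. At 2-fold or more, 1 member was higher and 3 were lower, against 4.41% and 4.46% of all genes. The edgeR quasi-likelihood test, which tested 27 of the 29, called 3 members higher (Serpinb1a, Serpinb6b and Serpini1) and 1 lower (Serpina6), against 3.22% and 2.80% of all 15308 genes it tested. The median log2 fold change of the 29 members was 0.28, and that of all genes tested was 0.01. The members' median depended on the read cutoff, at 0.57 with at least 30 reads and 0.11 with at least 120. Serpina3m and Serpinb10 are among the 29, and Serpinb9b among those with 30 reads, only through knockout reads. Without Control 1 or Control 2 the higher members numbered 3 and 2, without Control 3 they numbered 9, and without TfR1 knockout 1 the lower members numbered 5. P-values measure the spread between the 3 libraries of each group, which the series describes as biological replicates.

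**Figure D1:**
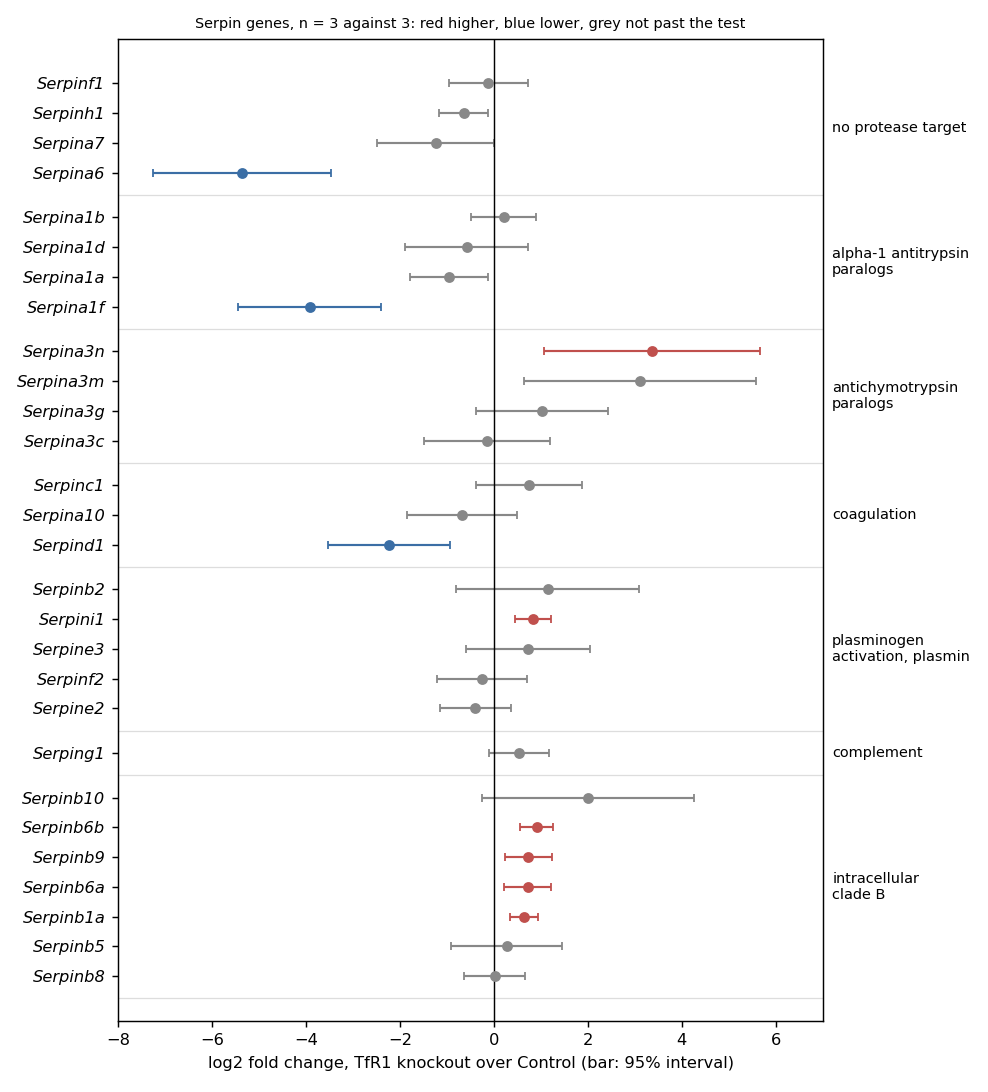
Log2 fold change of TfR1 knockout over Control (horizontal axis, bars are 95% intervals of the DESeq2 estimate, n = 3 libraries per group) for the Serpin genes with at least 60 reads that are described here, grouped by what they are known to do. The 6 red points are the members that passed as higher and the 3 blue points those that passed as lower, with Serpina6 at -5.36 and Serpina3n at 3.37 at the ends.

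The clade A and clade B genes lie in clusters. Of the 62 members placed on the mm9 assembly, 24 lay on chromosome 12, 15 on chromosome 13 and 13 on chromosome 1. RefSeq promoters (250 bases before to 50 after the start, GRCm38.p6) were taken for the 53 members that have one. They were aligned in pairs within the antitrypsin paralogs and within the antichymotrypsin paralogs. The Serpina3c and Serpina3n promoters were chosen for display after their values were seen, because 91.7% of the aligned window was identical and only Serpina3n passed the test, a difference between the genes that was not itself tested. This pair was the most alike of the antichymotrypsin paralogs, whose other pairs were 45.3% to 75.3% identical. The genes of the pair are not neighbours, since Serpina3g, Serpina3m and others lie between them. Capitals mark the bases with no identical partner in the alignment of the pair, which number 25 in each, and the sequences run 5′ to 3′ from chr12:104153823-104154122 on the minus strand and chr12:104406458-104406757 on the plus strand.
Serpina3c: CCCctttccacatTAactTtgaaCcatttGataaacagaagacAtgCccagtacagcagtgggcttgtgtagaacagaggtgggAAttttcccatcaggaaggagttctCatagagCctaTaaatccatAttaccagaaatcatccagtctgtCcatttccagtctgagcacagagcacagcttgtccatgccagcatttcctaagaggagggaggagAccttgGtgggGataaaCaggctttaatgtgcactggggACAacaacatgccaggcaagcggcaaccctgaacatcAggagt
Serpina3n: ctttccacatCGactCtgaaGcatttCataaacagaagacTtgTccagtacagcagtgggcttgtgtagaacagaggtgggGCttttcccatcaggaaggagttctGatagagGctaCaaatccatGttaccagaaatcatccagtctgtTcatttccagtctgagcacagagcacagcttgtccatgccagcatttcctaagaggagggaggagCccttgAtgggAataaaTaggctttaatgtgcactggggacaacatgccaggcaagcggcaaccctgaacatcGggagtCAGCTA

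Serpina3g and Serpina1f are shown because, among the antitrypsin and antichymotrypsin paralogs with at least 60 reads and a promoter entry, they held the letters TTCNNNGAA, a form of the STAT binding site, here in capitals. They too were settled on after the values were seen. The match began 33 bases before the start in Serpina3g (chr12:104235897-104236196, plus strand) and 97 bases before it in Serpina1f (chr12:103695480-103695779, minus strand). Searched on both strands, TTCNNNGAA was found for 15.1% of the 53 Serpin genes and in 8.30% of all 32851 promoters of this length. TATAAA was found for 28.3% and in 13.6%. These shares have unlike units, since a Serpin gene counted if any of its starts held the letters, while the background counted each promoter singly.
Serpina3g: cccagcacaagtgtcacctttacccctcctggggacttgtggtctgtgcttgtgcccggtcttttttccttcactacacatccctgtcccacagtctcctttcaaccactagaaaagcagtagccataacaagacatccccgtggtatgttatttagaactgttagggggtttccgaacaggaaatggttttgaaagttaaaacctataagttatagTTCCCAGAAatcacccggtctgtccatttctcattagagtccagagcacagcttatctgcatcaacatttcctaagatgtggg
Serpina1f: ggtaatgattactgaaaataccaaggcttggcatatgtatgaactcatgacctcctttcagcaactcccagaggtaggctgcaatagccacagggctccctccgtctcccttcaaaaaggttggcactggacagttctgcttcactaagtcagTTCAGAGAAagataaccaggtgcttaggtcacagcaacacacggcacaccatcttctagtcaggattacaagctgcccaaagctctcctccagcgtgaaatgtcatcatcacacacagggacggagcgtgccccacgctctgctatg

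Among the members that inhibit no protease, Serpina6 fell and Serpinh1, Serpinf1 and Serpina7 did not pass the test. Serpina6 (chr12:104884840-104895422, minus strand, mm9) encodes corticosteroid-binding globulin, which carries glucocorticoid in plasma. It stood at 49250, 47440 and 15360 normalized counts in Control 1, 2 and 3 and at 1390, 1205 and 137.2 in TfR1 knockout 1, 2 and 3. The lowest Control library lay above the highest knockout library, and within each group replicate 3 was the lowest. The log2 fold change was -5.36 (SE 0.97, DESeq2 adjusted p = 1.51e-06), which is 41.0-fold lower, and the edgeR adjusted p was 0.0221.

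In Control, Serpina6 was the Serpin gene with the highest level per length, at a mean of 21200 normalized counts per kb of exon (SD 10800, n = 3), followed by Serpinh1 at 4940 (SD 352). Serpina6 took 67.4%, 66.4% and 32.3% of all Serpin reads in Control 1, 2 and 3, and 4.72%, 4.64% and 0.531% in TfR1 knockout 1, 2 and 3. All Serpin genes together took 0.387%, 0.370% and 0.266% of counted reads in Control 1, 2 and 3 and 0.153%, 0.116% and 0.137% in the knockout libraries. Without Serpina6 the shares were 0.126%, 0.124% and 0.180% in Control and 0.146%, 0.111% and 0.136% in the knockout, which overlapped.

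**Figure D2:**
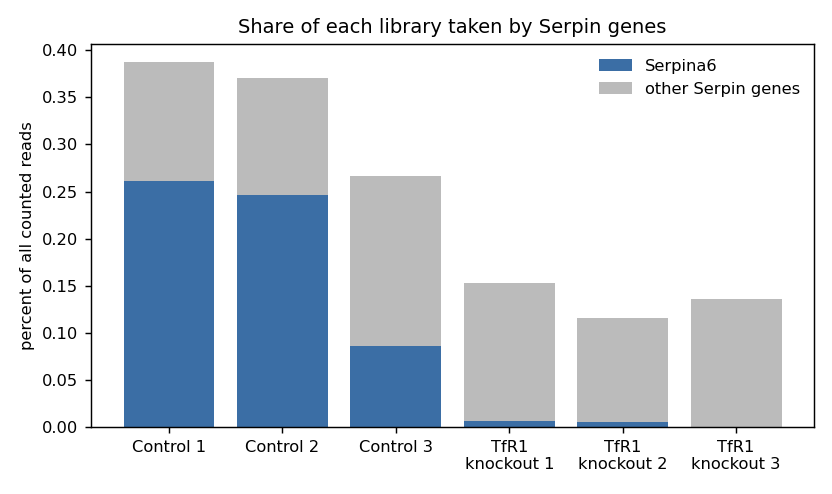
Percent of all counted reads (vertical axis) taken by Serpina6 (blue) and by the other Serpin genes (grey) in each of the 6 libraries. The full bars reach 0.266% to 0.387% in Control and 0.116% to 0.153% in the TfR1 knockout, while the grey parts overlap.

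Marker lists of other cell types are given beside Serpina6. Of 6 markers of the S3 segment of the proximal tubule, 1 was lower and 5 did not pass, and their summed level was 3330 to 10150 normalized counts in Control and 3835 to 6492 in the knockout. The transporter gene Slc7a13 was the marker that fell (log2 fold change -6.04), while Slc22a7, Slc5a8 and Slc22a19 had log2 fold changes of -1.95, -0.90 and -0.49 and Acy3 and Cyp7b1 of 0.25 and 0.69. Liver is the main source of circulating corticosteroid-binding globulin. Of 9 hepatocyte markers tested, 6 were higher in the knockout by DESeq2, of which edgeR called 3. Among them Alb was at 28.0, 15.5 and 14.0 in Control and 433, 371 and 67.2 in the knockout. Apoa2 and Apob, at -0.78 and -0.49, did not pass. The summed level of 6 adrenal cortex markers was 179.8 to 25950 in Control and 154.1 to 3382 in the knockout. The part of these cells in the Serpina6 values was not tested.

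Serpinh1, the collagen chaperone HSP47 of the endoplasmic reticulum, stood at 11260, 11880 and 12950 normalized counts in Control and at 10120, 5097 and 7884 in the knockout. The groups did not overlap, and the log2 fold change of -0.64 (SE 0.27) gave a DESeq2 adjusted p of 0.0866. Without TfR1 knockout 1 it was -0.89 with an adjusted p of 0.00389. Of 13 collagen chains and collagen-modifying enzymes that work with it, 2 were lower and none was higher by DESeq2, and edgeR called none in either direction. The lower genes were Col3a1, a fibrillar collagen (log2 fold change -1.15, DESeq2 adjusted p = 0.0249), and P3h1, a prolyl hydroxylase (-0.66, adjusted p = 0.00707). Summed stromal markers ranged from 24610 to 51120 in Control and from 18120 to 28170 in the knockout. DESeq2 called 2 of the 6 lower and edgeR none, and their part in these values was not tested.

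Serpina7, the thyroxine carrier, and Serpinf1, the antiangiogenic factor PEDF, did not pass the test. Serpina7 stood at 14.8, 18.2 and 25.8 normalized counts in Control and 5.97, 11.5 and 7.57 in the knockout, without overlap (-1.24, DESeq2 adjusted p = 0.187). Serpinf1 was at 299.3, 225.4 and 425.2 against 303.3, 135.6 and 435.1, and the groups overlapped.

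Because Serpina6 carries glucocorticoid, the genes of glucocorticoid handling and response were read beside it. Of 8 tested, 4 were higher and none was lower in the knockout by DESeq2, and edgeR called 2 higher, Fkbp5 and the clock gene Per1, the latter named after its values were seen. The 3 with the highest level are Fkbp5, a receptor co-chaperone, Tsc22d3, known as GILZ, and Sgk1, a kinase that acts on sodium transport. Fkbp5 stood at 1007, 1055 and 862.2 normalized counts in Control and at 3267, 13320 and 6489 in the knockout (log2 fold change 2.98, SE 0.44, DESeq2 adjusted p = 8.00e-10). Tsc22d3 stood at 2955, 2882 and 2118 against 3419, 13240 and 5782 (1.5, SE 0.44, DESeq2 adjusted p = 0.00795, edgeR adjusted p = 0.0983). The knockout libraries lay above the Control libraries for both genes, and knockout 2 was the highest. Sgk1 had a log2 fold change of 0.75 (DESeq2 adjusted p = 0.0312, edgeR adjusted p = 0.117), so that neither it nor Tsc22d3 passed by edgeR. The receptors Nr3c1 and Nr3c2 had log2 fold changes of -0.33 and 0.06 and did not pass.

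The alpha-1 antitrypsin paralogs, named for the inhibitor that protects tissue from neutrophil elastase, had 4 of 6 members at 60 reads or more. Serpina1f (chr12:104926254-104933739, minus strand, mm9) fell and Serpina1a, Serpina1b and Serpina1d did not pass. Serpina1f stood at 399.9, 222.7 and 30.1 normalized counts in Control and at 23.9, 7.68 and 11.4 in the knockout. The groups did not overlap, but Control 3 lay close to knockout 1. The log2 fold change was -3.92 (SE 0.78, DESeq2 adjusted p = 1.80e-05), with an edgeR adjusted p of 0.052 and a limma-voom adjusted p of 0.136.

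Among the members placed on mm9, Serpina1f is next to Serpina6 on one side, 30.8 kb away. Serpina10 lies 15.2 kb from Serpina6 on the other side. Serpina16 was not placed on mm9, so these gaps leave it out. Its GRCm38.p6 promoter starts at chr12:103676713, on the Serpina6 side of the Serpina1f promoter at chr12:103695480. Serpina1a was at 1398, 833.5 and 743.8 normalized counts in Control and 242.6, 766.4 and 528.8 in the knockout (log2 fold change -0.95, DESeq2 adjusted p = 0.114). Serpina1b had a log2 fold change of 0.20 and Serpina1d of -0.58, both with overlapping groups. Reads of these copies are partly shared: 42.3% of the 100-base windows of the Serpina1a transcript, 24.6% of those of Serpina1b and 26.3% of those of Serpina1d occur unchanged in another member, so their counts are uncertain, while none of the Serpina1f windows do.

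**Figure D3:**
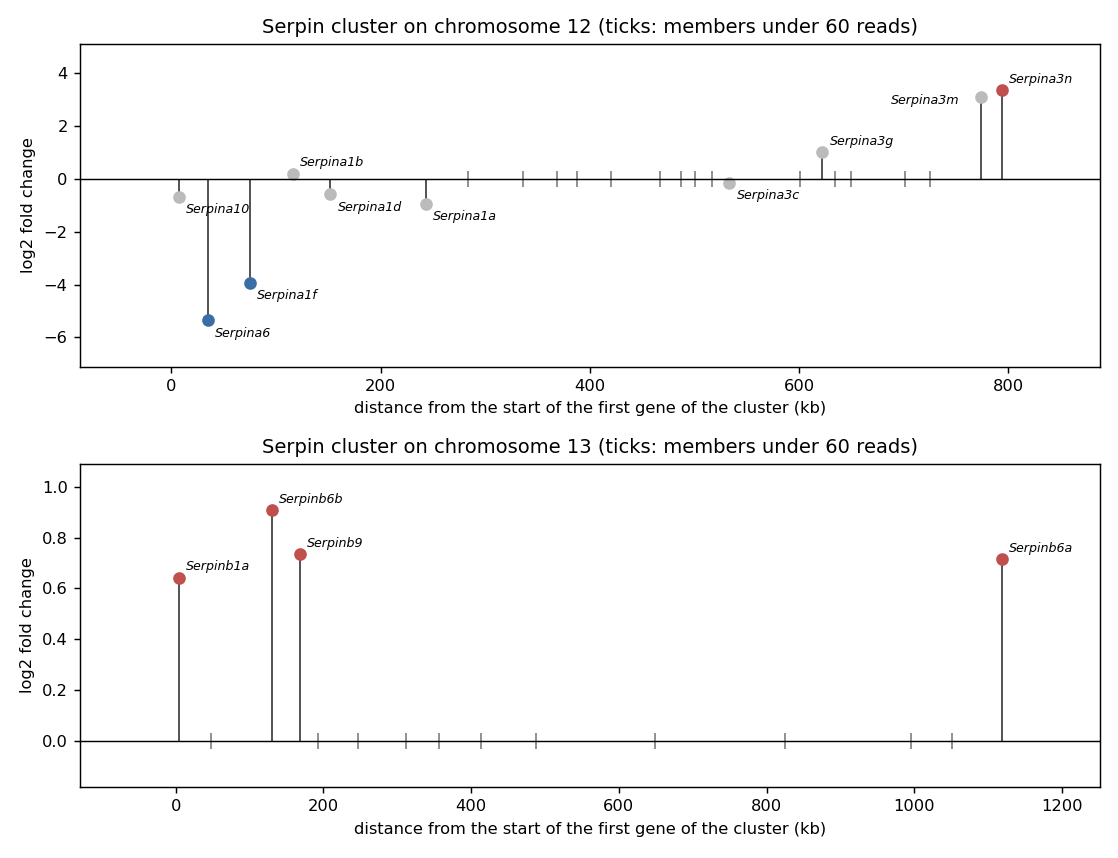
Log2 fold change of TfR1 knockout over Control (vertical axis) against distance in kb from the first gene for the Serpin clusters of chromosome 12 (top) and chromosome 13 (bottom), with red for higher, blue for lower, grey for not past the test and ticks for members under 60 reads. On chromosome 12 the lower Serpina6 and Serpina1f lie at one end and the higher Serpina3n at the other, and on chromosome 13 the 4 members with 60 reads or more are all red.

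The antichymotrypsin paralogs, relatives of the inhibitor of cathepsin G and chymase, had 4 of 11 members at 60 reads or more, of which Serpina3n rose and Serpina3m, Serpina3g and Serpina3c did not pass. Serpina3n (chr12:105644939-105652539, plus strand, mm9), an acute-phase inhibitor, stood at 11.5, 43.6 and 214.2 normalized counts in Control and at 743.8, 1672 and 362.3 in the knockout. Every knockout library lay above every Control library, and the spread within each group was wide. The log2 fold change was 3.37 (SE 1.18, DESeq2 adjusted p = 0.0328), with an edgeR adjusted p of 0.0894. The call was lost when any library except Control 3 was left out, with values from 2.63 to 3.75, and without Control 3 the log2 fold change was 5.07.

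Its neighbour Serpina3m, 12.5 kb away, was at 0, 0.909 and 6.46 normalized counts in Control and at 21.9, 35.8 and 3.78 in the knockout (3.11, DESeq2 adjusted p = 0.0764). Serpina3m met the read rule only through its knockout reads, so this fold change is given as description only. Serpina3g, an intracellular member of this group known from activated leukocytes, was at 36.3, 44.5 and 301.4 in Control and 363.0, 156.1 and 257.3 in the knockout (1.03, DESeq2 adjusted p = 0.366). For both genes Control 3 was the highest Control library and overlapped the knockout. Serpina3c, whose promoter is nearly that of Serpina3n, was at 22.3, 9.09 and 57.1 against 22.9, 29.4 and 26.5 (-0.16, DESeq2 adjusted p = 0.913). Serpina3k, below 60 reads, had 0, 0 and 0 reads in Control and 7, 17 and 5 in the knockout. Of 9 hepatocyte markers tested 6 were higher in the knockout by DESeq2 and 3 by edgeR. The summed level of the list ranged from 3400 to 5073 in Control and 4276 to 16180 in the knockout. Most of this sum was 1 gene, Ttr, at 3164, 3848 and 4815 in Control and 8254, 15130 and 4038 in the knockout. The groups overlapped for Ttr, and edgeR did not call it (adjusted p = 0.14). Among the knockout libraries Alb was lowest in knockout 3, as Serpina3n and Serpina3m were. Apoa1, Apoa2, Apob, Ttr, Ahsg and Cps1 were also lowest there, while Tat and Fgb were not. In knockout 1, 2 and 3, Tat stood at 28.8, 75.5 and 33.1 and Fgb at 54.7, 140.7 and 56.8, lowest in knockout 1. The part of hepatocytes in the values was not tested.

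The clade B serpins, which act inside cells, had 26 members in this grouping, of which 7 reached 60 reads, 8 had fewer and 11 had none. Serpinb1a, Serpinb6a, Serpinb6b and Serpinb9 rose, none fell, and Serpinb5, Serpinb8 and Serpinb10 did not pass. The increases were below 2-fold and the spread between replicates was small for Serpinb1a and Serpinb6b.

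Serpinb6b (chr13:33057182-33070936, plus strand, mm9), a relative of the cathepsin G inhibitor Serpinb6a, stood at 402.4, 402.7 and 452.1 normalized counts in Control and at 883.1, 685.8 and 786.1 in the knockout. The log2 fold change was 0.91 (SE 0.18, DESeq2 adjusted p = 2.29e-05, edgeR adjusted p = 0.0233). Serpinb1a, an inhibitor of neutrophil elastase, cathepsin G and proteinase 3, stood at 470.8, 450.8 and 463.9 in Control and at 773.7, 713.9 and 675.4 in the knockout. Its log2 fold change was 0.64 (SE 0.15, DESeq2 adjusted p = 6.59e-04, edgeR adjusted p = 0.0393). Neither gene overlapped between groups, and the call for Serpinb1a was lost only without Control 2, with an adjusted p of 0.0533.

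Serpinb9, the inhibitor of granzyme B, stood at 978.7, 968.9 and 1163 normalized counts in Control and at 2313, 1453 and 1406 in the knockout. Its log2 fold change was 0.73 (SE 0.25, DESeq2 adjusted p = 0.0285, edgeR adjusted p = 0.0951). Serpinb6a stood at 1298, 1097 and 1798 in Control and at 1868, 2677 and 2333 in the knockout (0.71, SE 0.25, DESeq2 adjusted p = 0.0363, edgeR adjusted p = 0.102). The groups did not overlap for either gene, but Control 3 lay just under the lowest knockout library for Serpinb6a. Both calls were lost with total-count and with upper-quartile scaling, and both were lost without Control 1 or Control 2. Leaving out knockout 1 also ended the call for Serpinb9, and leaving out knockout 2 or knockout 3 that for Serpinb6a.

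Serpinb9b, which lies 9.5 kb from Serpinb9 and had fewer than 60 reads, had 0, 0 and 0 reads in Control and 12, 6 and 12 in the knockout. It stayed above the filter only through its knockout reads, so its test result is not used. Serpinb8, an intracellular inhibitor, was at 377.6, 469.9 and 208.8 normalized counts in Control and 330.2, 431.2 and 311.2 in the knockout (0.02, 95% interval -0.63 to 0.67). Serpinb10 reached 40.8 in knockout 1 and at most 6.46 in each other library, and it met the read rule only through knockout 1. The summed level of 6 macrophage markers was 1985 to 2981 in Control and 4436 to 6603 in the knockout, with 4 of 6 higher by DESeq2 and by edgeR. Of 5 neutrophil markers tested, DESeq2 called 2 higher, S100a8 and S100a9, whose groups overlapped, and edgeR called none. The summed level of the neutrophil list was 72.6 to 357.4 against 224.7 to 871.3. These leukocytes also express clade B serpins, and their part in the increases was not tested.

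Of 8 granule and lysosomal proteases tested, the class that clade B serpins face, 1 was higher and 1 lower by DESeq2. The genes of neutrophil elastase, cathepsin G and granzymes A and B (Elane, Ctsg, Gzma and Gzmb) had too few reads to be tested. Their reads summed over the libraries were 12, 7, 14 and 8. Ctss, the cathepsin of antigen-presenting cells, had a log2 fold change of 2.57 (DESeq2 adjusted p = 7.53e-10) and Ctsl, a broadly expressed lysosomal cathepsin, of -0.77 (adjusted p = 0.0383), a call lost under edgeR (adjusted p = 0.125).

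**Figure D4:**
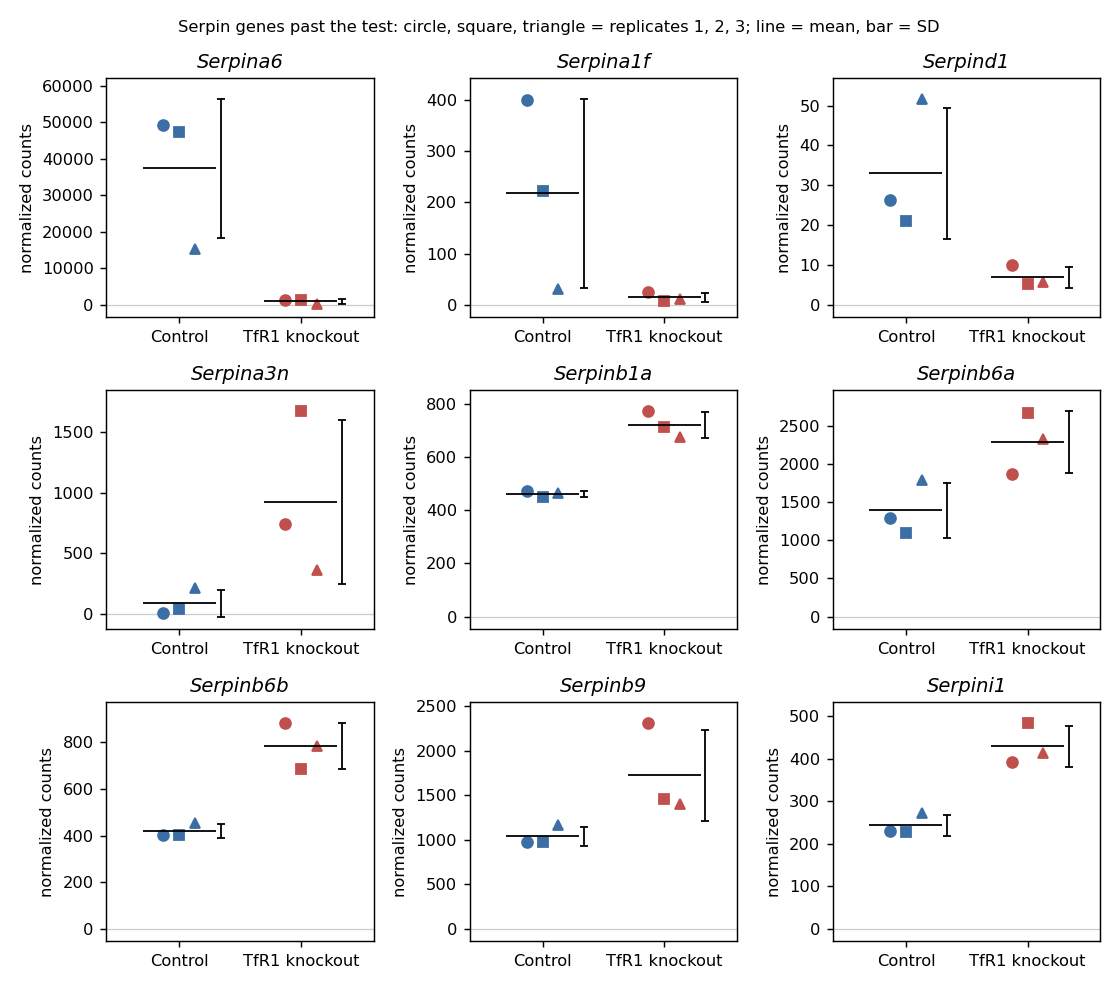
Normalized counts (vertical axis, linear, with a grey line at 0) of the 9 Serpin genes past the test in each library, with circle, square and triangle for replicates 1, 2 and 3, a line for the mean and a bar for the SD (n = 3). The 9 genes were chosen by the test itself, and the share of all genes without overlap was not counted. Groups are separate in each panel, narrowly so for Serpina1f, where Control 3 stood at 30.1 against 23.9 in knockout 1. They are also narrowly separate for Serpinb6a, where Control 3 stood at 1798 against 1868 in knockout 1.

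Among the secreted inhibitors of coagulation, Serpind1 fell and Serpinc1 and Serpina10 did not pass. Serpind1 (chr16:17331464-17343668, plus strand, mm9) encodes heparin cofactor II, an inhibitor of thrombin. It stood at 26.4, 20.9 and 51.7 normalized counts in Control and at 9.94, 5.12 and 5.68 in the knockout, without overlap. The log2 fold change was -2.24 (SE 0.66, DESeq2 adjusted p = 0.00844), with an edgeR adjusted p of 0.0501. The call was lost without Control 3 (adjusted p = 0.118) and without knockout 3 (0.0715).

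Serpinc1, antithrombin, was at 16.5, 19.1 and 12.9 normalized counts in Control and 21.9, 43.5 and 17.0 in the knockout, which overlapped (0.75, DESeq2 adjusted p = 0.416). Serpina10, the protein Z-dependent inhibitor of factor Xa, was at 274.6, 509.0 and 256.2 against 450.5, 122.8 and 76.6 (-0.68, DESeq2 adjusted p = 0.491), with knockout 1 within the Control range. Its cofactor protein Z, the gene Proz, chosen after its value was seen, stood at 101.4, 95.4 and 62.4 in Control and at 4.97, 5.12 and 2.84 in the knockout (-4.35, DESeq2 adjusted p = 3.43e-12). Of 14 coagulation proteases and cofactors tested, 3 were higher and 5 lower. The higher genes included F3, tissue factor (1.62, DESeq2 adjusted p = 1.23e-18). The lower genes included F13b, the carrier subunit of factor XIII (-3.99, adjusted p = 2.40e-22), and Tfpi, the inhibitor of tissue factor (-1.03, adjusted p = 2.07e-04).

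Among the inhibitors of plasminogen activation and plasmin, Serpini1 rose, and Serpine2, Serpine3, Serpinf2 and Serpinb2 did not pass. Serpini1, neuroserpin, an inhibitor of tissue plasminogen activator, stood at 228.4, 228.1 and 271.3 normalized counts in Control and at 390.8, 483.6 and 413.4 in the knockout. The groups were well apart, with a log2 fold change of 0.82 (SE 0.20, DESeq2 adjusted p = 6.54e-04, edgeR adjusted p = 0.0408).

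Serpine2, protease nexin 1, was at 2039, 2122 and 5292 normalized counts in Control and 2170, 2046 and 2967 in the knockout (-0.40, SE 0.39, DESeq2 adjusted p = 0.546), and without Control 3 its log2 fold change was 0.20. Serpinf2, alpha-2 antiplasmin, ranged from 327.2 to 1052 in Control and from 378.4 to 983.9 in the knockout. Serpinb2, PAI-2, had 63.6 in knockout 1 and at most 23.7 elsewhere, and Serpine3 ranged from 7.27 to 16.5 against 11.9 to 24.3.

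Of 5 proteases and receptors of this system, Plaur was higher, Plau was lower and Plat, Plg and Plgrkt did not pass. Plau, urokinase, stood at 15960, 18240 and 9833 normalized counts in Control and at 8821, 6641 and 5973 in the knockout (-1.04, SE 0.28, DESeq2 adjusted p = 0.00346, edgeR adjusted p = 0.0662). Plaur, the urokinase receptor, stood at 134.4, 130 and 163.6 against 456.4, 497.7 and 315.9 (1.57, SE 0.26, DESeq2 adjusted p = 9.26e-08). The protease and its receptor differed in opposite directions, each without overlap between groups.

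**Figure D5:**
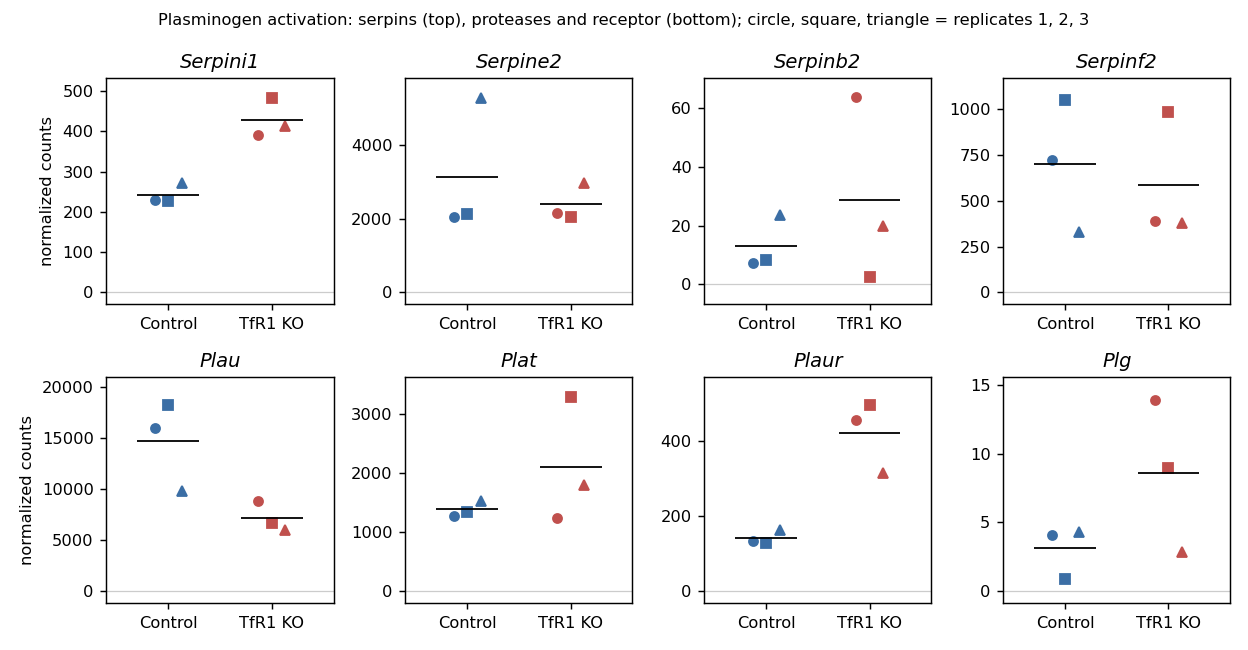
Normalized counts (vertical axes, linear, each gene on its own scale) in each library for 4 serpins of plasminogen activation (top) and 4 genes of the protease side (bottom), with circle, square and triangle for replicates 1, 2 and 3 and a line for the mean (n = 3). Plau lies lower and Plaur and Serpini1 higher in the TfR1 knockout, while Serpine2, Serpinb2 and Serpinf2 overlap between groups.

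Serping1, the C1 inhibitor, which blocks the first complement protease and plasma kallikrein, was at 3186, 3041 and 6711 normalized counts in Control and at 5646, 6659 and 6351 in the knockout. The Control group was split, with Control 3 above all knockout libraries, and the log2 fold change of 0.53 (SE 0.33) gave a DESeq2 adjusted p of 0.293. Without Control 3 it was 1.00 with an adjusted p of 3.12e-08. Of 6 complement C1 and lectin pathway genes tested, 3 were higher and none was lower. These were C1qa, C1qb and C1qc, the recognition chains of C1, with log2 fold changes of 1.54, 1.46 and 1.56 (DESeq2 adjusted p = 2.69e-04, 6.65e-04 and 9.09e-05, with C1qb not called by edgeR at 0.0504), while the protease gene C1ra, at -0.03, did not pass.

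Serpin complexes are cleared by lipoprotein receptors, and of 8 such receptors and stabilisers 3 were higher and 1 was lower. Lrp2, megalin, the endocytic receptor of the proximal tubule, had a log2 fold change of -1.48 (DESeq2 adjusted p = 4.60e-04, edgeR 0.0537), Vldlr of 0.61 (adjusted p = 5.69e-04) and Sdc1, a heparan sulphate proteoglycan, of 0.90 (adjusted p = 7.02e-05). Of 10 epithelial serine proteases 3 were higher and 3 lower. Klk1, tissue kallikrein, had -1.27 (DESeq2 adjusted p = 0.00147, edgeR 0.0593), Tmprss2 1.14 (adjusted p = 1.87e-04) and St14, matriptase, 0.91 (adjusted p = 0.0227, edgeR 0.0988). Of 10 protease inhibitors of other families, 3 were higher and none was lower, namely Wfdc2 at 0.79, Spink8 at 1.13 and Slpi at 1.42 (DESeq2 adjusted p = 4.31e-05, 1.26e-11 and 0.0247). Of the genes named in this paragraph so far, edgeR did not call Lrp2, Klk1, St14 and Slpi (adjusted p = 0.115 for Slpi). Agt, a serpin by fold whose symbol keeps it out of the family list, gives rise to the angiotensins and had a log2 fold change of 0.61 with an adjusted p of 0.429.

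The 16 members with no reads included Serpina5, the protein C inhibitor, Serpina11, Serpini2 and 11 clade B genes, among them Serpinb9f, of which 52.1% of transcript windows of 100 bases recur in Serpinb9e, Serpinb9g or the predicted gene Gm11397.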

How the data were processed

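Poly-A RNA of whole kidney was sequenced by the authors on an Illumina HiSeq2000 after TruSeq library preparation. Per the labels the submitters' processing notes name CASAVA 1.8.2, Trimmomatic, TopHat2 2.0.11, HTSeq and the mm9 build. The deposited values are raw counts of reads per gene in 6 columns, 1 per library, with no normalization by the authors.

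From these counts, DESeq2 1.42.0 (R 4.3.3) was fitted over all genes with median-ratio size factors, a Wald test, unshrunken fold changes and Benjamini-Hochberg adjustment, with a threshold of 0.05. The independent filter kept genes with a mean of 3.51 normalized counts or more. DESeq2 is the test the study names. The edgeR 4.0.16 quasi-likelihood test and limma 3.58.1 with voom were alternatives, beside other scalings, filters, a replicate block and fits without each library. The scripts were tested on counts simulated with dispersions estimated by edgeR, a setting that may favour edgeR. There DESeq2 made more false calls than its threshold allows and edgeR and limma-voom stayed near theirs. For this reason the edgeR adjusted p stands beside the DESeq2 calls of members.

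Each library's value is given for members past the test and for those averaging 1000 normalized counts or more. From each pathway list up to 3 genes past the test with the highest mean are named, most of them by fold change alone, so their spread between libraries is not shown. The members and lists were chosen with earlier results of these data known. Gene positions and exon lengths came from GENCODE M1 (mm9), promoters from RefSeq (GRCm38.p6). Promoters were not used for members with no entry, which at 60 reads or more included Serpina10, Serpina3m, Serpina6, Serpinb1a and Serping1. The values of 1 member counted in the family totals are not reported here. No pair of libraries was a duplicate. Strand setting, read length and the handling of reads with several matches are not given in the sources used here.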

Additional observations from a re-analysis of the deposited data

How the results depend on the processing

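Direction held for the 12 Serpin genes described in full under 15 alternatives each (edgeR, limma-voom, 3 scalings, 2 filters, Cook filtering off, the replicate block and 6 fits without 1 library), except Serpine2, which turned to 0.20 without Control 3 and ran from -0.64 to 0.20 over the fits without 1 library. Of these 180 values 146 kept their side of the threshold, 30 no longer passed and 3 newly passed. Serpina6, Serpinb6b and Serpini1 passed under all 15. By edgeR and by limma-voom 3 members were higher and 1 lower, with 0 higher and 1 lower at 2-fold or more, and 6 (edgeR) or 7 (limma-voom) genes of the pathway lists were lower in place of 13. With members of at least 30 reads, 2 were higher at 2-fold or more. The one added was Serpinb9b, which stayed above the filter only through its knockout reads, so this count is not used. Over the fits without 1 library, members passed as higher numbered 2 to 9 and as lower 2 to 5, with 0 to 3 and 2 to 4 at 2-fold or more. Their median log2 fold change ran from 0.07 to 0.54, pathway genes from 16 to 21 higher and 9 to 15 lower, and Tfrc from -0.10 to 0.30, where it was -0.10 without Control 3 and -0.07 without TfR1 knockout 1. Total-count scaling moved the median of all genes from 0.01 to -0.10. The cause of these changes was not tested.

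With the replicate number as a block, 9 members were higher and 4 lower, 3 of them higher at 2-fold or more, Serpinh1 passed (adjusted p = 0.0286) and Serpind1 did not (0.0575). The numbers were not taken as pairing, since same-numbered libraries had correlations of -0.04, 0.06 and 0.09 in their deviations, and Control 2 correlated best with TfR1 knockout 1 (0.10).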
